A study of Mus musculus with 4 samples.

Results

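Secondary (specific) and tertiary (gelatinase) granule genes are the set that a maturing neutrophil switches on after its primary granules are made, and 10 of them were followed here through CAF-1 loss. The genes were Ltf, Camp, Ngp, Lcn2, Mmp8, Mmp9, S100a8, S100a9, Ly6g and Cd177, listed by name and found by Ensembl identifier in the counts of every library, so 10 of the 43629 identifiers counted are described. All 10 were measured in all 4 libraries, and all 10 were among the 16500 genes that passed the filter on low counts. None of the 10 passed the test of Chaf1b deletion, and in 5 of them, Mmp9, Mmp8, Ltf, Cd177 and Lcn2, each deleted library was above each control. Over all genes tested, 0.37% were called higher and 21.4% had both deleted libraries above both controls. The collagenase and gelatinase genes Mmp8 and Mmp9 showed the widest differences, while Ngp, S100a8 and S100a9, the most abundant genes of the set, overlapped between groups.

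In neutrophil development, primary granules fill with myeloperoxidase and serine proteases in promyelocytes, secondary granules with lactoferrin and other antimicrobial proteins in myelocytes and metamyelocytes, and tertiary granules with gelatinase in band cells. Proteins reach a granule type largely because their genes are transcribed while that granule forms, so the transcripts mark stages of maturation. C/EBP epsilon is the factor best known for the secondary granule genes, and neutrophils that lack it have almost none of their products. Not every gene of the set encodes granule cargo, since S100a8 and S100a9 encode the cytosolic calprotectin subunits and Ly6g a surface protein anchored by a lipid, and the S100 pair is also well transcribed in monocytes.

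The cells were CD117+ hematopoietic stem and progenitor cells (HSPCs) of C57Bl/6 mice that carried floxed Chaf1b alleles, grown with SCF, IL6, IL3 and LDL. Chaf1b encodes a subunit of CAF-1, the chaperone that deposits histones on newly made DNA, and the comparison asks what HSPCs express when it is lost. The 2 MIGR1 libraries came from Chaf1b (fl/fl) cells that received the empty retroviral vector, and the 2 dChaf1b libraries from cells labelled Chaf1b (-/-) that received MIGR1-Cre. Both groups therefore shared the floxed allele, the virus, the culture and the sort of eGFP-positive cells 48 h after spinfection, and the control received no Cre. The labels give no age, and the study's methods describe young adult mice of both sexes. Nothing in the labels says that the replicates came from separate mice or cultures. The tests therefore measure the spread between these libraries, which may be technical between the controls. The dChaf1b libraries also differed in Xist, as given below.

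Between 18468637 and 25409926 reads per library were counted on genes, and 3 counts, the floor of detection, amounted to between 0.118 and 0.162 CPM, which is the standard scaling of counts to the total of the library, here the total on genes. Chaf1b was measured at 80.3 and 57.9 CPM in the MIGR1 libraries and at 16.1 and 17.9 CPM in the dChaf1b libraries, and it fell by 2.01 on the log2 scale (SE 0.25, adjusted p = 0.033, edgeR's quasi-likelihood test, Benjamini-Hochberg). The library dChaf1b replicate 1 stood apart, with Xist at 336 CPM against 1.14 to 1.30 CPM in the other 3 and 12 interferon-stimulated genes summing to 1662 CPM against 164 to 196 CPM. The fold changes of the 10 genes, and the medians of the lists beside them, are therefore given below also without it. Xist marks female cells, so sex may differ between dChaf1b replicate 1 and the other libraries, and its part in the values was not tested. The fit without dChaf1b replicate 1 holds a lone deleted library that is taken to vary like the controls. Its p-values and calls rest on the controls' spread, so its log2 fold changes alone are given beside each gene. The HSPC label was set against Kit, the gene of CD117, at 109.5 and 124 CPM in MIGR1 and 95.6 and 124 CPM in dChaf1b. Myb was at 475 and 492 CPM against 298 and 334.5 CPM, and Cd34 at 76.9 and 77.65 CPM against 93.4 and 134 CPM. Progenitor transcripts were thus present in every library. Myb was lower and Cd34 higher in each deleted library than in each control, and neither was called. The 10 granule genes took between 4.87% and 7.17% of all counts in the same libraries, and in bulk RNA more neutrophil-lineage cells cannot be told apart from more granule transcript per cell.

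Per length of exon the genes spanned a wide range of levels in the control. S100a8, at a mean of 31753 RPKM (CPM per kilobase of exon), and S100a9, at 31536 RPKM, overlapped in their library values and led the order. Ngp followed at 10797 RPKM, then Camp at 2413 RPKM, Ltf at 1782 RPKM, Lcn2 at 1073 RPKM and Cd177 at 497 RPKM, and each of these neighbours was separated in both control libraries. Ly6g at 203 RPKM and Mmp8 at 132 RPKM overlapped, and Mmp9 came last at 25.4 RPKM. In the dChaf1b libraries the mean per-length level of S100a9, 38892 RPKM, was above that of S100a8, 32354 RPKM, that of Ltf, 3306 RPKM, was above that of Camp, 2958 RPKM, and that of Mmp8, 410 RPKM, was above that of Ly6g, 367 RPKM. Exon lengths came from the NCBIM37 annotation, and with the longest transcript of 1374 bases in place of all 2302 exonic bases the control level of Lcn2 became 1798 RPKM, beside that of Ltf. By rank of raw counts S100a9 was the first or second most counted gene in each library, whereas Mmp9 stood at ranks 1735 and 4965 in the controls and 121 and 180 in the deleted libraries.

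**Figure D1:**
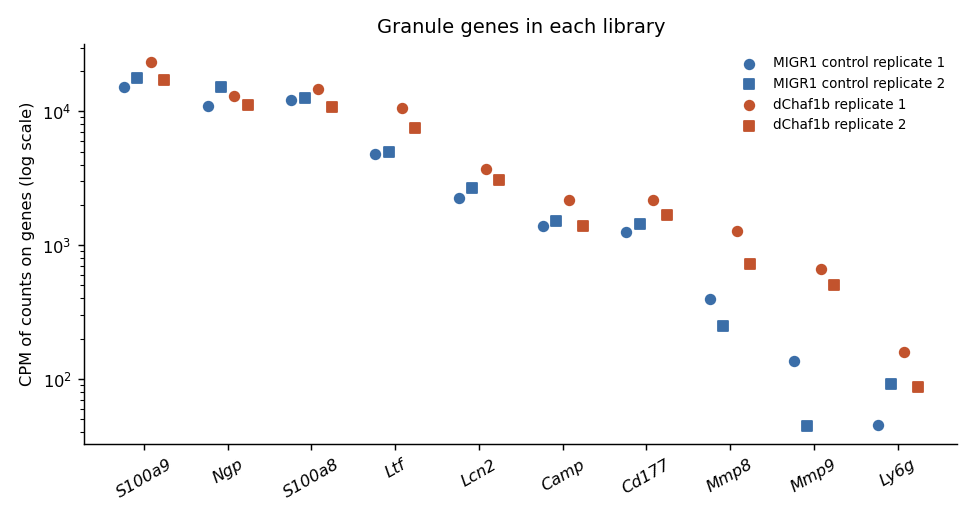
Level of each granule gene in each library, in CPM of the counts on genes on a log scale, with blue for MIGR1 and orange for dChaf1b, circles for replicate 1 and squares for replicate 2. The deleted libraries sit above both controls for Ltf, Lcn2, Cd177, Mmp8 and Mmp9, with Mmp9 at 506 and 664 CPM against 44.4 and 135 CPM, and the points of Ngp, S100a8, S100a9, Camp and Ly6g overlap.

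The matrix metalloproteinases showed the largest differences of the set. Mmp9 (chromosome 2, 164766280 to 164781350, plus strand, NCBIM37) encodes gelatinase B, the defining cargo of tertiary granules, and had 135 and 44.4 CPM in the MIGR1 libraries and 664 and 506 CPM in the dChaf1b libraries. The lower deleted library was above the higher control library, although the controls themselves differed widely. Means were 89.8 ± 64.2 CPM (SD, n = 2) and 585 ± 112 CPM (SD, n = 2). The log2 fold change was 2.74 (SE 0.51) with an adjusted p of 0.0849, so Mmp9 missed the threshold. Without dChaf1b replicate 1 the log2 fold change of Mmp9 was 2.41.

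Mmp8 (chromosome 9, 7558429 to 7568486, plus strand) encodes neutrophil collagenase, a secondary granule protease, and was counted at 397 and 249.7 CPM in MIGR1 and at 1282 and 728 CPM in dChaf1b. Both deleted libraries again lay above both controls. Group means of 323 ± 104 CPM and 1005 ± 392 CPM (SD, n = 2 each) gave a log2 fold change of 1.69 (SE 0.40, adjusted p = 0.144). Without dChaf1b replicate 1 the log2 fold change of Mmp8 was 1.09. The 250 bases upstream of the Mmp8 start (chr9:7558179-7558428, plus strand, GRCm38.p6, from RefSeq) are shown because Mmp8 differed most among the genes with an upstream sequence, and the capitals mark matches to a C/EBP string, close to the start, and on the other strand to a PU.1 string.
Mmp8: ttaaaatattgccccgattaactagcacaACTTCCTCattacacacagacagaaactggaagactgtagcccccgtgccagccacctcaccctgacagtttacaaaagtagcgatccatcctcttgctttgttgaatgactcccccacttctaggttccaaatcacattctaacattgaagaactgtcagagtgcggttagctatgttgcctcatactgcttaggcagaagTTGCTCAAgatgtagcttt

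Among the genes of this set for antimicrobial proteins of secondary granules, only Ltf and Lcn2 had deleted libraries above both controls. Ltf (chromosome 9, 110921796 to 110945270, plus strand) encodes lactoferrin, an iron-binding protein and the classical secondary granule marker. Its level was 4806 and 4968 CPM in the MIGR1 libraries and 10556 and 7571 CPM in the dChaf1b libraries, so the controls lay close together and both deleted libraries were higher. From 4887 ± 115 CPM to 9064 ± 2111 CPM (SD, n = 2 each), the log2 fold change was 0.94 (SE 0.38, adjusted p = 0.373). Lcn2 (chromosome 2, 32240153 to 32243317, minus strand), which encodes the siderophore-binding lipocalin NGAL, was at 2258 and 2684 CPM in MIGR1 and 3729 and 3055 CPM in dChaf1b. The groups of Lcn2 were separate but near each other, with a log2 fold change of 0.50 (SE 0.32, adjusted p = 0.595). Without dChaf1b replicate 1, the log2 fold changes were 0.55 for Ltf and 0.23 for Lcn2.

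Camp and Ngp, both of the cathelicidin family, overlapped between groups. Camp (chromosome 9, 109749889 to 109751970, minus strand) encodes the precursor of the antimicrobial peptide CRAMP and was at 1379 and 1521 CPM in MIGR1 and 2160.2 and 1396 CPM in dChaf1b. The first deleted library was the highest of the 4 and the second lay between the controls, and the log2 fold change of 0.34 (SE 0.34, adjusted p = 0.749) became -0.14 without dChaf1b replicate 1. Ngp (chromosome 9, 110322254 to 110325514, plus strand), the neutrophilic granule protein, was at 11014 and 15266 CPM in MIGR1 and 13033 and 11089 CPM in dChaf1b. For Ngp both deleted libraries lay between the controls, and its log2 fold change of -0.09 (SE 0.40, adjusted p = 0.956) was the single negative value of the set, and was -0.32 without dChaf1b replicate 1.

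Ltf, Ngp and Camp lie within the same stretch of chromosome 9, and their upstream sequences are shown to set them side by side, since Ltf differed most of the 3 and Ngp least. Each is the 250 bases before the RefSeq start in GRCm38.p6, read along the gene, at chr9:111019042-111019291 on the plus strand for Ltf, chr9:110419558-110419807 on the plus strand for Ngp and chr9:109849457-109849706 on the minus strand for Camp. Capitals mark matches to the C/EBP string TTGCNNAA on either strand, of which Ltf has 1, Ngp 2 and Camp none.
Ltf: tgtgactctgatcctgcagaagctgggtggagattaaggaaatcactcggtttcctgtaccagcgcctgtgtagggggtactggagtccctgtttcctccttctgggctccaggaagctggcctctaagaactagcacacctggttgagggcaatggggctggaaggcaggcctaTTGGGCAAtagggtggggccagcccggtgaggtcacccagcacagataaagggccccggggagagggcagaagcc
Ngp: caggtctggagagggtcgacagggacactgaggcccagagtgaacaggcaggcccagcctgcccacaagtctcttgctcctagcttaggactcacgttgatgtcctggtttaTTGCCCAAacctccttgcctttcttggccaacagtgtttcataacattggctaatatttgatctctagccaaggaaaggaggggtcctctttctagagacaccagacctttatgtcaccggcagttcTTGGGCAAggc
Camp: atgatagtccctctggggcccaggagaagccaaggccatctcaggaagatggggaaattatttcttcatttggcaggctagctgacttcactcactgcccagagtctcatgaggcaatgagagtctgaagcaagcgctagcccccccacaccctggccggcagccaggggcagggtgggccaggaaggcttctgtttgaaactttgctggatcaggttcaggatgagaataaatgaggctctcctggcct

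The calprotectin genes were abundant in both groups. S100a8 (chromosome 3, 90472993 to 90473956, plus strand) and S100a9 (chromosome 3, 90496554 to 90499643, minus strand) encode calcium-binding proteins that pair and hold zinc and manganese away from microbes. S100a8 was at 12224 and 12671 CPM in MIGR1 and 14653 and 10712 CPM in dChaf1b, with 1 deleted library above and 1 below both controls. S100a9 was at 15153 and 17771 CPM in MIGR1 and 23316 and 17287 CPM in dChaf1b, and there the second deleted library lay between the controls. The log2 fold changes were 0.07 for S100a8 (SE 0.40, adjusted p = 0.966) and 0.35 for S100a9 (SE 0.43, adjusted p = 0.809), and without dChaf1b replicate 1 they were -0.30 and -0.01.

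The surface genes Cd177 and Ly6g differed from each other in abundance and in separation. Cd177 (chromosome 7, 25529004 to 25545330, minus strand) encodes a lipid-anchored glycoprotein also stored in secondary granules and was at 1255 and 1442 CPM in MIGR1 and 2177 and 1685 CPM in dChaf1b. Both deleted libraries were above both controls, with a log2 fold change of 0.56 (SE 0.30, adjusted p = 0.519) that was 0.24 without dChaf1b replicate 1. Ly6g (chromosome 15, 74987123 to 74989169, plus strand) encodes the antigen that part of the Gr1 antibody signal reports and was at 45.2 and 90.9 CPM in MIGR1 and 159.9 and 86.6 CPM in dChaf1b. The second deleted library lay just under the higher control, and the log2 fold change of 0.92 (SE 0.42, adjusted p = 0.443) was 0.27 without dChaf1b replicate 1. Of the exonic stretches of 31 bases, 12.7% in Ly6g and 13.2% in Cd177 occur elsewhere in the NCBIM37 genome, so part of their counts could be shared with related sequences, and at most 0.0904% do so in the other 8 genes.

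Counted over the set, 0 of 10 genes were called higher and 0 lower at 1.5-fold and an adjusted p under 0.05 by edgeR's quasi-likelihood test, where 0.37% of all genes tested were called higher and 0.00606% lower. With p under 0.05 before adjustment, 3 of 10 were higher (Ltf, Mmp8 and Mmp9), beside 9.15% of all genes tested. DESeq2 called Mmp8, Mmp9 and Ltf, and edgeR's exact and likelihood ratio tests called Mmp8 and Mmp9. Both deleted libraries were above both controls in 5 of 10 genes and below in none, against 21.4% and 22.9% of all genes tested. The log2 fold change was positive in 9 of 10 genes with a median of 0.53, while the median over all genes tested was -0.03. Without dChaf1b replicate 1 the value was positive in 6 of 10 with a median of 0.23.

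**Figure D2:**
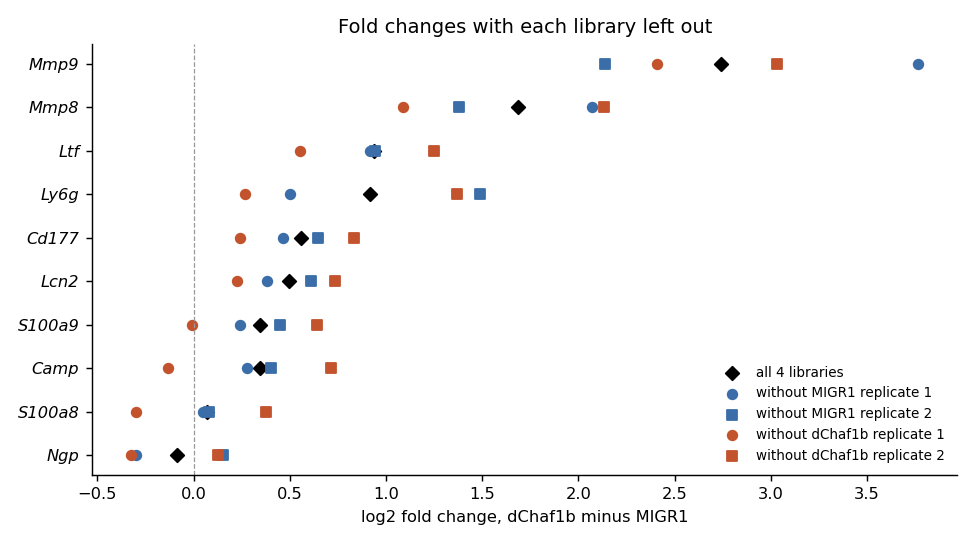
Log2 fold change of each granule gene, dChaf1b minus MIGR1, with all 4 libraries (black diamonds) and with 1 library omitted at a time (blue for MIGR1, orange for dChaf1b, circles for replicate 1 and squares for replicate 2). Mmp9 stays between 2.14 and 3.77 and Mmp8 between 1.09 and 2.13, while Camp, S100a8, S100a9 and Ngp lie on both sides of 0.

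The total of the 10 genes was 48665 and 56707 CPM in the MIGR1 libraries and 71730.2 and 54116 CPM in the dChaf1b libraries. The sum overlapped between groups, with the second deleted library between the controls, but its composition differed. S100a9 held 31.1% and 31.3% of the summed counts in MIGR1 and 32.5% and 31.9% in dChaf1b, nearly the same share throughout. Ltf held 9.88% and 8.76% in the controls and 14.7% and 14.0% in the deleted libraries, and Ngp held 22.6% and 26.9% against 18.2% and 20.5%. Mmp8 and Mmp9 together numbered 11.1 and 5.21 per 1000 counts of the other 8 genes in the controls and 27.9 and 23.3 in the deleted libraries.

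Ratios of counts inside a library do not depend on its scaling, and they were chosen after the values had been seen, so they are given as a description with no test. Ltf per count of S100a8 was 0.393 and 0.392 in MIGR1 and 0.720 and 0.707 in dChaf1b. Ltf per count of Ngp was 0.436 and 0.325 against 0.810 and 0.683, and Ltf per count of Camp was 3.49 and 3.27 against 4.89 and 5.43. These 3 ratios were higher in each deleted library than in each control, including dChaf1b replicate 2 alone. S100a9 per count of S100a8 was 1.24 and 1.403 in MIGR1 and 1.59 and 1.61 in dChaf1b. Mmp9 per count of Mmp8 was 0.341 and 0.178 in MIGR1 and 0.518 and 0.695 in dChaf1b, and Cd177 per count of Ly6g, at 27.8 and 15.9 against 13.6 and 19.5, overlapped.

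**Figure D3:**
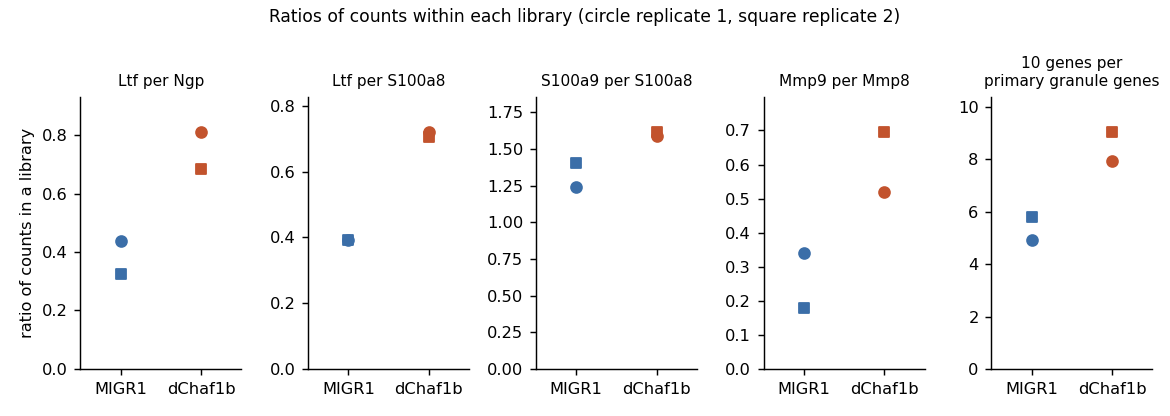
Ratios of counts within each library for MIGR1 and dChaf1b, circles for replicate 1 and squares for replicate 2, each panel on its own linear axis from 0. In each panel both dChaf1b points lie above both MIGR1 points, and Ltf per S100a8 shows 0.393 and 0.392 against 0.720 and 0.707.

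Of the other genes of secondary and tertiary granules, 1 was called. Of 26 listed, 25 were tested, and Mmp25, a membrane-anchored metalloproteinase of neutrophils, was called, where 0.37% of all genes tested were called higher. Mmp25 was at 34.0 and 26.6 CPM in MIGR1 and 125.5 and 96.4 CPM in dChaf1b, and it rose by 1.91 on the log2 scale (SE 0.27, adjusted p = 0.0429), or by 1.59 without dChaf1b replicate 1. In 17 of the 25 both deleted libraries were above both controls and in 0 below, where 21.4% and 22.9% of all genes tested were, 12 had an unadjusted p under 0.05 with higher values, where 9.15% of all genes tested did, and the median log2 fold change was 0.73, or 0.27 without dChaf1b replicate 1. Abundant genes of this list did not pass, among them Lyz2 (lysozyme, log2 fold change 0.42, adjusted p = 0.711), Chil3 (a chitinase-like protein, 0.73, adjusted p = 0.488) and Cybb (the oxidase subunit gp91phox, 0.35, adjusted p = 0.686). Their log2 fold changes without dChaf1b replicate 1 were 0.08 for Lyz2, 0.27 for Chil3 and 0.15 for Cybb. Chosen after their values were seen, Retnlg, a resistin-like secreted protein, was at 62.9 and 44.3 CPM against 269.6 and 169 CPM (log2 fold change 2.08, adjusted p = 0.0639, and 1.57 without dChaf1b replicate 1), and Fcnb, a ficolin, was at 168 and 313 CPM against 177 and 167 CPM (log2 fold change -0.45, adjusted p = 0.616, and -0.60 without dChaf1b replicate 1).

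Genes listed as primary granule genes lay on the other side of 0. All 10 tested of the 11 listed had a negative log2 fold change with a median of -0.33. Of these, 0 were called, where 0.00606% of all genes tested were called lower. In 4 both deleted libraries were below both controls, where 22.9% of all genes tested were. An unadjusted p under 0.05 was found in 2, and the share over all genes was not computed for that direction. Elane, neutrophil elastase, was at 1739 and 2369 CPM in MIGR1 and 1229 and 751 CPM in dChaf1b (log2 fold change -1.0, SE 0.36, adjusted p = 0.319). Without dChaf1b replicate 1 the log2 fold change was -1.53 for Elane and -1.50 for Prss57, a related serine protease named after its values were seen. The median of the 10 was then -0.73, again with all 10 negative. Mpo, myeloperoxidase, was at 3417 and 2684 CPM against 3362 and 2238 CPM, and Ctsg, cathepsin G, was at 1172 and 1124 CPM against 1209 and 756 CPM, both overlapping. Leaving out dChaf1b replicate 1 gave log2 fold changes of -0.53 (Mpo) and -0.68 (Ctsg). Per count summed over the primary granule genes, the 10 granule genes gave 4.93 and 5.81 counts in MIGR1 and 7.95 and 9.04 in dChaf1b, and the other secondary and tertiary granule genes 1.04 and 1.37 against 2.13 and 2.40. Both ratios were higher in each deleted library than in each control, whereas the summed level of the 10 genes overlapped between groups.

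**Figure D4:**
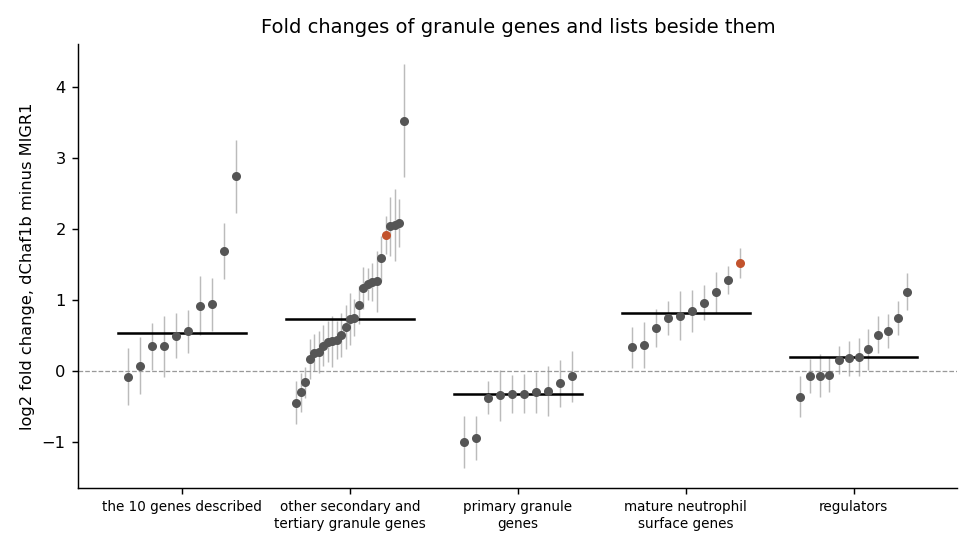
Log2 fold changes, dChaf1b minus MIGR1, with bars of 1 SE, for the granule genes and for lists beside them, where the black line is the median of a list and orange marks the genes that passed the test (Mmp25 and Cxcr2). Medians are 0.53 for the 10 genes, 0.73 for the other secondary and tertiary granule genes, -0.33 for primary granule genes, 0.81 for mature neutrophil surface genes and 0.19 for regulators.

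Genes listed as regulators include, besides transcription factors, the receptor genes Lbr and Csf3r. Of 12 tested, 4 had both deleted libraries above both controls and 0 below, where 21.4% and 22.9% of all genes tested did. In the other 8 the groups overlapped. Of the 12, 0 were called, where 0.37% of all genes tested were called higher. At an unadjusted p under 0.05, 3 were higher, where 9.15% of all genes tested were. The median was 0.19, or 0.12 without dChaf1b replicate 1. The 3 most abundant were Lbr, the lamin B receptor needed for nuclear lobulation (log2 fold change -0.06, adjusted p = 0.951), Cux1 (-0.08, adjusted p = 0.932) and Runx1 (0.18, adjusted p = 0.829). The values without dChaf1b replicate 1 were -0.29 for Lbr, 0.10 for Cux1, which turned in sign, and 0.39 for Runx1. Cebpe, Cebpb and Csf3r were chosen after their values were seen. Cebpe, which encodes C/EBP epsilon, was at 171 and 240.4 CPM in MIGR1 and 228 and 150.3 CPM in dChaf1b. Its groups overlapped, with a log2 fold change of -0.07 (adjusted p = 0.953), or -0.53 without dChaf1b replicate 1. Cebpb, the factor of emergency granulopoiesis, was at 25.9 and 32.6 CPM against 69.2 and 53.9 CPM (log2 fold change 1.12, SE 0.26, adjusted p = 0.14), and Csf3r, the G-CSF receptor, was at 154 and 111 CPM against 200.1 and 239 CPM (log2 fold change 0.74, adjusted p = 0.252). They were 0.80 (Cebpb) and 0.77 (Csf3r) without dChaf1b replicate 1.

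Genes for inhibitors and receptors of the granule proteins were tested in 7 of 8 cases, with a median of 0.38. Of these, 0 were called, where 0.37% of all genes tested were called higher. In 4 both deleted libraries were above both controls, where 21.4% of all genes tested were. Without dChaf1b replicate 1 all 8 were tested, so the median of 0.38 found there covers Timp1 too. Pecam1, the endothelial and leukocyte partner of CD177, had a log2 fold change of 0.23 (adjusted p = 0.738), Lrp1, an endocytic receptor that binds lactoferrin and MMP-9, 1.17 (adjusted p = 0.358), and Tlr4, a receptor of calprotectin, 0.38 (adjusted p = 0.606). These became 0.06 for Pecam1, 1.20 for Lrp1 and 0.07 for Tlr4 without dChaf1b replicate 1. The metalloproteinase inhibitor gene Timp2, named after its values were seen, was at 28.2 and 41.5 CPM in MIGR1 and 71.9 and 64.6 CPM in dChaf1b (log2 fold change 1.01, adjusted p = 0.172, and 0.81 without dChaf1b replicate 1), so that it was higher in the same libraries as Mmp8 and Mmp9. Timp1 was under 1 CPM everywhere and was not tested in the fit of all libraries.

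Of 10 mature neutrophil surface genes tested, 8 had both deleted libraries above both controls, where 21.4% of all genes tested did, and 6 had higher values with an unadjusted p under 0.05, where 9.15% did. The median was 0.81 and 1 was called, where 0.37% of all genes tested were called higher. That gene was Cxcr2, the chemokine receptor through which neutrophils leave the marrow, at 126 and 105 CPM in MIGR1 and 297 and 357 CPM in dChaf1b, and it rose by 1.52 on the log2 scale (SE 0.22, adjusted p = 0.0429). Without dChaf1b replicate 1 Cxcr2 rose by 1.55 and the median of the list was 0.68. C5ar1, the complement C5a receptor, was named after its values were seen. Its log2 fold change was 1.27, short of a call, with all libraries and 1.28 without dChaf1b replicate 1.

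Marker genes of other cells are given beside these values. Monocyte and macrophage markers, which share transcription of S100a8 and S100a9 with neutrophils, were called in 0 of 12, had a median of 0.63, and summed to 1133 and 2139 CPM in MIGR1 and 2470 and 1396 CPM in dChaf1b, with none at 0 in any library. Among dendritic cell markers (6 of 7 tested, median 1.67) and stem and progenitor markers (10 tested, median 0.21), Flt3, a cytokine receptor on both lists, rose from 4.66 and 5.31 CPM to 19.3 and 22.7 CPM (log2 fold change 2.09, adjusted p = 0.0383) and was the single call. Over all genes tested, 0.37% were called higher. Without dChaf1b replicate 1 the value of Flt3 was 2.10. Other markers were named after their values were seen. Their log2 fold changes without dChaf1b replicate 1 were 2.72 for Ccr7 (dendritic) and -1.96 for Epx (eosinophil). For the megakaryocyte markers Pf4, Itga2b and Vwf they were 1.60, 1.19 and 1.91. Medians were 1.26 over 7 megakaryocyte markers, which summed to 102 and 101 CPM in MIGR1 and 155 and 270.4 CPM in dChaf1b, 1.26 over 6 tested lymphoid markers, which summed to 10.7 and 17.0 CPM against 31.8 and 28.9 CPM, 0.12 over 11 mast cell, basophil and eosinophil markers and -0.44 over 8 erythroid markers, with 0 called in these 4 lists. Both deleted libraries were above both controls in 6 of 7 megakaryocyte, 6 of 6 lymphoid and 5 of 6 dendritic cell markers tested. The same held for 5 of 12 monocyte and macrophage, 4 of 10 stem and progenitor and 7 of 12 interferon-stimulated genes. It held for 2 of 11 mast cell, basophil and eosinophil and 1 of 8 erythroid markers, and for 21.4% of all genes tested. Medians without dChaf1b replicate 1 were 1.60 (megakaryocyte), 0.98 (lymphoid), -0.0021 (mast cell, basophil and eosinophil), -0.13 (erythroid), 1.36 (dendritic) and 0.55 (stem and progenitor). Of the lymphoid markers, Cd3e was at 0 in dChaf1b replicate 1 and Ncr1 at 0 in dChaf1b replicate 2, and neither was tested. The sum of the 12 interferon-stimulated genes, with a median of 3.33 and 0 called, was highest in dChaf1b replicate 1, and their median without it was 0.14. The median of the monocyte and macrophage markers without it was 0.20. The part of these other cells and of that library in the granule gene values was not tested.

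The 10 genes sit on 5 chromosomes, and none of their tested neighbours was called. From Camp to Ltf, 1195 kb of chromosome 9 (109749889 to 110945270, NCBIM37) hold 32 other annotated genes, of which 22 were tested. None of the 22 was called, where 0.37% of all genes tested were called higher, and 0 had an unadjusted p under 0.05. Of the 22, 2 had deleted libraries above both controls and 4 below, where 21.4% and 22.9% of all genes tested did. The median log2 fold change was -0.01 with a range from -1.10 to 0.86. Again 22 were tested without dChaf1b replicate 1, with a median of -0.06. Ngp lies 573 kb from Camp and Ltf a further 609.6 kb along. Setd2, a histone methyltransferase gene of this stretch and the most abundant of its other genes, was at 314 and 351 CPM in MIGR1 and 206 and 306 CPM in dChaf1b (log2 fold change -0.37, adjusted p = 0.578, and -0.20 without dChaf1b replicate 1), and Als2cl, between Ngp and Ltf, was at 15.4 and 37.9 CPM against 50.5 and 41.9 CPM (0.84, adjusted p = 0.466, and 0.58 without dChaf1b replicate 1). Taking the 5 nearest annotated genes on each side of all 10 genes, 51 were tested with 0 called and a median of 0.09. Of the 51, 12 had deleted libraries above both controls and 8 below, where 21.4% and 22.9% of all genes tested did. Without dChaf1b replicate 1, 52 were tested and the median was -0.04. No annotated gene overlaps one of the 10.

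**Figure D5:**
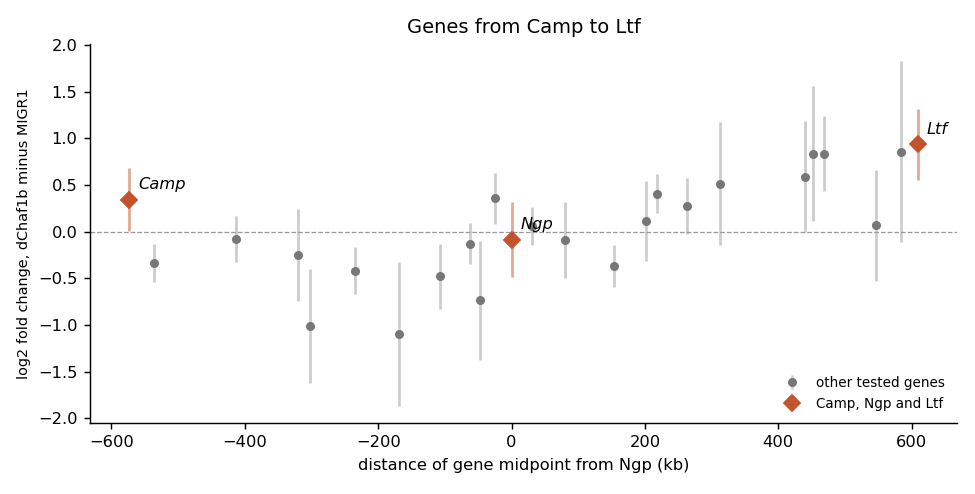
Log2 fold changes, dChaf1b minus MIGR1, with bars of 1 SE, of the tested genes from Camp to Ltf against the distance of each gene's midpoint from that of Ngp in kb, with Camp, Ngp and Ltf as orange diamonds and the 22 other genes in grey. Grey points scatter from -1.10 to 0.86 around a median of -0.01, while Ltf stands at 0.94 at the right end.

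Upstream sequences were in the RefSeq table (GRCm38.p6) for 9 of the 10 genes and not for Mmp9. In windows from 250 bases before the start to 50 bases after it, the C/EBP string TTGCNNAA on either strand was found in 6 of the 9 genes and in 10.8% of all 32851 windows. Counted from the start, the matches began at -75 in Ltf, -138 and -11 in Ngp, -19 in Mmp8, -216 in Lcn2, -236 in S100a9 and -232 in Ly6g, so they were found both in genes with separate groups and in genes with overlapping groups. The PU.1 string GAGGAAGT was found in Mmp8, S100a8 and Ly6g and in 3.2% of windows. The ELF1 string CCGGAAGT (3.89% of windows), which shares the ending GGAAGT with it, the NF-kB string (1.63%) and the interferon response string (3.44%) were in none of the 9. A match is a match of letters in this window and not a measured binding site.

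The 5 genes whose profile over the 4 libraries was most like the summed level of the 10 genes, among 9281 genes with a mean of at least 10 CPM, were Itm2b, Tnfrsf1a, Vim, Lars2 and Zfp787. The root mean square distance of their centred log2 levels from that of the sum was between 0.0191 and 0.0287. The summed profile itself was lowest in MIGR1 replicate 1 and highest in dChaf1b replicate 1, and these genes overlapped between groups as the sum did.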

How the data were processed

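RNA-seq counts of 4 libraries (2 MIGR1, 2 dChaf1b, grouped by their labels) were analysed. Ribosomal RNA was depleted and libraries were made with a stranded total RNA kit. The deposited values are raw counts per gene, 1 library per table, which the authors made with STAR and HTSeq on mm9, per the labels. The annotation release and the strand setting of the counting are not given in the sources used here. Reads counted outside genes made up 35.8% to 48.3% of each table and were left out. Of 43629 identifiers, 33068 were named from the NCBIM37 (mm9) annotation. Symbols written otherwise there were matched through RefSeq synonyms, and some identifiers are newer than that annotation, so the exon lengths may differ from those counted.

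Counts were scaled to the total on genes (CPM). filterByExpr in edgeR removed low genes (minimum count 10). The rest were scaled by TMM (factors from 0.926 to 1.06) and compared with edgeR 4.0.16 (glmQLFit with its older dispersion handling, glmQLFTest) in R 4.3.3 with limma 3.58.1. Calls needed 1.5-fold and a Benjamini-Hochberg adjusted p under 0.05 over all 16500 genes. The SE was computed from the fold change and the F statistic. The method was tested on simulated data. Replicate libraries differed beyond counting error (chi-square per degree of freedom 44.4 and 66.9), so none was a repeat deposit. Reads have no molecular identifiers, so floors cover counting error only. With 2 libraries a group no single value was tested by permutation.

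The 10 genes and the lists were chosen with earlier results of these data known. The genes named were the 10 and any called gene of a list. The 3 most abundant were named for the lists of granule genes, regulators, and inhibitors and receptors. Genes from Camp to Ltf, the 5 genes most like the summed level, Chaf1b and Xist were named too. Kit, Myb and Cd34 were named to check the HSPC label, and Timp1, Cd3e and Ncr1 as genes not tested. Others are said to be chosen or named after their values were seen. Alternatives were other scalings, filters and tests, DESeq2 1.42.0, the replicate number as a block, and each library left out.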

Additional observations from a re-analysis of the deposited data

How the results depend on the processing

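Members of the set called higher numbered 0 by the quasi-likelihood test, also with DESeq2's size factors, library size, upper-quartile scaling, 10 counts in every library, the bias-adjusted quasi-likelihood test and the replicate block. They numbered 3 without a filter on low counts (Mmp8, Mmp9 and Ly6g), 2 by edgeR's exact test and 2 by its likelihood ratio test, 3 by DESeq2 and 0 to 2 with a library left out. None was called lower under any of these. Leaving out MIGR1 replicate 1 or dChaf1b replicate 2 gave calls of Mmp8 and Mmp9, leaving out MIGR1 replicate 2 gave Mmp9 and Ly6g, and leaving out dChaf1b replicate 1 gave none, where the lone library is taken to vary like the other group.

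Over all genes, 61 were called higher and 1 lower. The count higher was 27 with DESeq2's size factors, 30 with library size, 808 without a filter, 3 with 10 counts in every library, 537 by the exact test, 583 by the likelihood ratio test, 471 by DESeq2, 14 with the replicate block, 0 at 2-fold and an adjusted p under 0.01, and 125 to 331 with a library left out. The count lower was 79 without a filter, 0 with 10 counts in every library, 37 by the exact test, 40 by the likelihood ratio test, 32 by DESeq2, 0 with the replicate block, 0 at 2-fold and 0.01, and 6 to 42 with a library left out. Same-numbered libraries deviated together with a correlation of 0.0133 across genes, so the numbers were not taken as pairs. The cause of these shifts was not tested.

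With a library left out, the log2 fold change ranged from -0.14 to 0.72 for Camp, -0.32 to 0.15 for Ngp, -0.30 to 0.38 for S100a8 and -0.0097 to 0.64 for S100a9, and kept its sign for the other 6 genes. Scaling moved the median of all genes to between -0.05 and -0.01, and no filter moved it to -0.13.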
